A study of Mus musculus with 2 samples.

Results

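The bone morphogenetic protein (BMP) genes described here are 9 of the 20886 genes with a symbol on the array. They are the antagonist Grem1 (gremlin 1), the ligands Bmp2, Bmp4, Bmp5 and Bmp6, the receptor Bmpr2, and the target genes Id1, Id2 and Id3. They were selected by their role in the pathway and on their differences between the same 2 arrays, which were known beforehand, so that the values below are a description and carry no test. Whole lung RNA was measured on 2 one-colour Agilent arrays, 1 per group, 14 days after bleomycin at 1.25 mg/kg was given into the trachea. Bleomycin injures the alveoli and leads to scarring. The C57BL6/N group is labelled as male mice of that strain aged 6 weeks. The HSP27 group is labelled with the same strain, sex, age, dose and day, and overexpresses heat shock protein 27 (HSP27, the product of Hspb1) as a transgene. Both groups received bleomycin, and untreated lung was not analysed here. The promoter of the transgene, its species and whether a sample pools several animals are not given in the sources used here.

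BMPs are secreted dimers that bring type I and type II receptors together at the cell surface. The activated type I receptor phosphorylates Smad1, Smad5 and Smad9, which enter the nucleus with Smad4 and switch on genes, among them the Id genes. Antagonists such as gremlin 1 and noggin bind the ligands outside the cell and keep them from their receptors. In the lung the pathway is best known for the endothelium, where loss-of-function variants of the human BMPR2 gene cause heritable pulmonary arterial hypertension, and gremlin 1 is known for its raised level in human fibrotic lung.

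The promoters of the members with the largest difference upward and downward, Grem1 and Bmpr2, and of the Id genes in the table are shown because activated BMP Smads are known to bind GC-rich elements such as GGCGCC in promoters of Id genes. RefSeq promoter sequence on build GRCm38.p6 was found for 7 of the 9 members, with Bmp2 and Id1 missing. The 250 bases before each gene's start are given 5′ to 3′ on the gene's strand, and capitals mark GGCGCC.
Grem1, chr2:113758649-113758898, - strand: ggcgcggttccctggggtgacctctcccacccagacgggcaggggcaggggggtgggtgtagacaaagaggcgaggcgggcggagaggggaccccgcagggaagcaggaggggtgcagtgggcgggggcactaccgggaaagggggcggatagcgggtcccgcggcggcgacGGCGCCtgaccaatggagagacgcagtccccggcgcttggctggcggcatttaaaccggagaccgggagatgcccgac
Bmpr2, chr1:59764029-59764278, + strand: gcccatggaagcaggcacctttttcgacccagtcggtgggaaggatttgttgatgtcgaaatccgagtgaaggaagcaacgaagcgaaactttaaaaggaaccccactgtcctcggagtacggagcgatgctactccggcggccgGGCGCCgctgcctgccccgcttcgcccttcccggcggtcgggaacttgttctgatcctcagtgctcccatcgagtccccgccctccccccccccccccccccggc
Id2, chr12:25096093-25096342, - strand: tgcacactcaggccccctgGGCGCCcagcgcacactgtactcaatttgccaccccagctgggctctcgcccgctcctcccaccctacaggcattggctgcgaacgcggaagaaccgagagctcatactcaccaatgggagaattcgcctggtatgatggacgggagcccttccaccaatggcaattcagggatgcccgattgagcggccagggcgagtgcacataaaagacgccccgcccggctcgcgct
Id3, chr4:136143572-136143821, + strand: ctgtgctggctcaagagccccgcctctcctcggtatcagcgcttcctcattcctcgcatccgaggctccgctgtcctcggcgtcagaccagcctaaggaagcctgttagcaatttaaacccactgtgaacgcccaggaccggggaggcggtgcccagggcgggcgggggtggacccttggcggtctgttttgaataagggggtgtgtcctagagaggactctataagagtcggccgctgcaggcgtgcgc

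The hexamer GGCGCC, which reads the same on both strands, was present in 9.65% of 32536 promoter windows of this length. It was found 1 time in the windows of Grem1, Bmpr2 and Id2, with its first base 78, 105 and 231 bases before the start. The Id3, Bmp4, Bmp5 and Bmp6 windows held no match. The windows of Grem1, Bmpr2 and Id2 had GC contents of 72.0%, 64.0% and 62.8%, against a median of 52.4% over all windows. The windows without a match had 68.8% (Bmp6), 63.2% (Bmp4), 62.8% (Id3) and 42.8% (Bmp5). The shorter Smad element GTCT, searched on both strands, was in 82.9% of windows, with 4 matches in Grem1, 2 in Id3, 1 in Id2 and 0 in Bmpr2. GTCT and its reverse complement AGAC cannot overlap GGCGCC. These matches describe the letters of the windows alone.

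Both arrays lay on 1 slide and came from 1 scan, and 69.3% and 69.4% of 39429 probes were well above background. The lung epithelial genes Sftpc (surfactant protein C), Scgb1a1 and Ager were well above background on both arrays. A probe for mouse Hspb1 read 41040 for C57BL6/N and 53554 for the transgenic mouse lung, 0.24 higher on the log2 scale after scaling, and whether it detects the transgene's own transcript was not tested. Sex-linked transcripts went against the label of 1 array. Xist, which marks the inactive X chromosome in females, had signals of 521 and 330 on the array labelled C57BL6/N and was at least 29.3-fold lower at either probe on the other array, while the Y-linked Ddx3y was 4.33-fold higher there. The C57BL6/N array held Y-linked transcripts as well, with Ddx3y at 508 and Eif2s3y at 800, both well above background, so that it carried Xist and Y-linked signal together. Whether its RNA came from animals of both sexes was not tested, and sex and transgene cannot be told apart. The transgenic array also held more transcript of heart muscle, fat and basal airway cells. Of 9 measured cardiac markers, 9 were at least 2-fold higher, with summed scaled signals of 5.0 for C57BL6/N and 36.8 for the transgenic lung. Sln and Mb of that list were not well above background in the C57BL6/N lung. Fat markers summed to 0.217 and 19.6 over 3 measured genes, and Adipoq, Plin1 and Pck1 were detected in the transgenic lung alone, Lep in neither. Most of the transgenic sum came from Cfd, which differed by 9.62, while Retn differed by 5.27 and Cidec by 0.63. Basal cell markers summed to 0.498 and 3.75 over 5 measured genes, with Krt17 on the transgenic array alone. The probes of Trp63, 1 of the 5, disagreed, with a dim probe at 48.4 and 250 and a bright one at 3758 and 3563. In whole lung, fewer cells of a type and less RNA per cell cannot be told apart. With 1 array per group these differences accompany every result below, no result can be recomputed without a doubted array, and their part in the results was not tested.

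All 9 genes were measured on both arrays, that is, by at least 1 probe well above background on each. Grem1 was the member with the largest difference and was higher in the transgenic lung, Bmpr2, Bmp6 and Id1 were at least 1.5-fold lower, and Bmp2, Bmp4, Bmp5, Id2 and Id3 lay within 1.5-fold. Each difference is a log2 value, transgenic minus C57BL6/N, after each array was scaled to its 75th percentile. Of the 9, 1 exceeded 1.5-fold upward and 3 downward, against 10.2% and 8.31% of 15495 genes measured on both arrays, and the median difference was -0.09 against -0.04 over all genes. At 2-fold, 1 was higher and 0 lower, against 3.81% and 1.87% of all genes. With cyclic loess scaling 66.5% of all genes past 1.5-fold were higher, against 55.1% in the main scaling. There was no replicate, so the spread between animals is unknown. The error estimate of the array software, which is technical alone, gave an error of 0.20 to 0.21 for the log2 difference of each member. The difference exceeded 2 such errors in 5 members, which were Grem1, Bmpr2, Bmp6, Id1 and Id3, and stayed within it in the other 4. The share of all genes past 2 such errors was not computed. In size, 26.0% of all genes had a larger difference than Id3, the smallest of the 5.

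**Figure D1:**
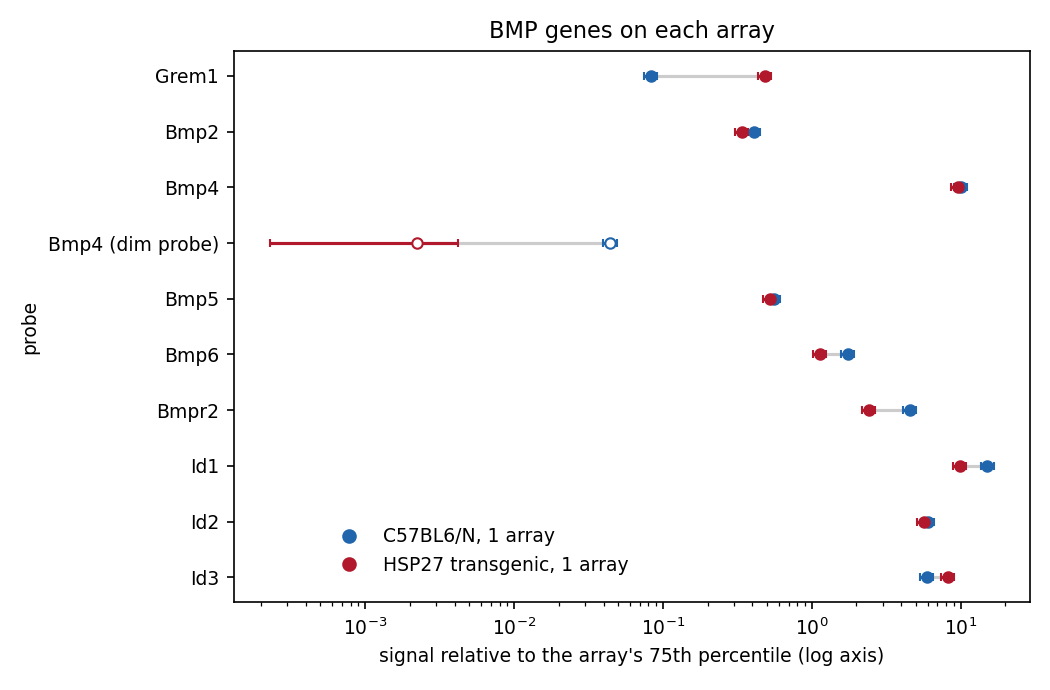
Signal of each probe of the 9 BMP genes on the C57BL6/N array (blue) and the HSP27 transgenic array (red), relative to the array's 75th percentile on a log axis. Bars are the array software's error of a single spot, and open circles mark the Bmp4 probe that lay near background in the transgenic lung. The points of Grem1 lie far apart with the transgenic array higher, and those of Bmpr2, Bmp6 and Id1 lie apart with the transgenic array lower.

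The antagonist was the member that differed most. Grem1 (NM_011824) read 107 ± 11.1 (software error) in the C57BL6/N lung and 692 ± 69.3 in the transgenic lung. It was thus dim in the first and clearly brighter in the other. The scaled log2 difference was 2.54, or 5.82-fold, which is 12.2 software errors, against a repeat-spot SD of 0.15 for probes of that brightness. In rank this was the 71st highest difference of 15495, with 0.452% of genes higher, and it ranged from 1.97 to 2.63 over the 11 settings tried. Gremlin 1 is made by fibroblasts, and fibroblast markers were higher on the same array. Of 12 measured fibroblast and myofibroblast markers, 8 exceeded 1.5-fold upward and 0 downward, against 10.2% and 8.31% of all genes. Their median difference was 0.88, and their summed scaled signal 182 in C57BL6/N and 300 in transgenic lung. Within 1.5-fold were Col3a1 (0.32), Pdgfrb (0.09), Pdgfra (0.06) and Postn. The Grem1 difference lay above all 12, which ran from -0.31 for Postn to 1.92 for Cthrc1, a marker of activated fibroblasts. Grem1 was chosen with its difference known, and the part that the higher fibroblast markers have in its value was not tested.

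The ligands differed little or were lower. Bmp4 (NM_007554), which acts in lung branching and is made by mesenchymal and endothelial cells, read 13007 ± 1301 and 13716 ± 1372 at its bright probe, a scaled log2 difference of -0.07. A dimmer Bmp4 probe read 57.1 ± 6.30 in the C57BL6/N lung and 3.17 ± 2.85 in the transgenic lung, the latter not well above background. That probe was at least 5.06-fold lower in the transgenic lung, so that the probes of Bmp4 disagreed. Bmp5 (NM_007555) read 718 ± 71.8 and 746 ± 74.6, a difference of -0.09, and the arrays overlapped within the software error. Bmp2 (NM_007553), a ligand close to Bmp4 in sequence, read 526 ± 52.7 and 485 ± 48.5, a difference of -0.27, within 2 errors. Bmp6 (NM_007556), known as an endothelial ligand that controls liver hepcidin, was the one of these 4 ligands with the largest difference among probes measured on both arrays. It read 2261 ± 226 in the C57BL6/N lung and 1624 ± 162 in the transgenic lung, a difference of -0.63 or 1.54-fold lower, and 92.8% of genes had a higher difference. Bmp6 stood within 1.5-fold, at -0.57 and -0.58, with median scaling and cyclic loess.

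The receptor was lower in the transgenic lung. Bmpr2 (NM_007561), the type II receptor that phosphorylates the type I partner, read 5870 ± 587 in the C57BL6/N lung and 3436 ± 344 in the transgenic lung. The scaled log2 difference was -0.92, or 1.89-fold lower, at the edge of the central 95% of all genes (-0.92 to 1.24), and 97.5% of genes had a higher difference. It was at least 1.5-fold lower in each of the 11 settings, from -1.35 to -0.87. Bmpr2, like Grem1, was read by 1 probe of 1 spot, so the filter settings and the brightest probe could not change either value. Endothelial markers were lower on the same array. Of 14 measured, 9 exceeded 1.5-fold downward and 0 upward, against 8.31% and 10.2% of all genes. Their median difference was -0.69, and their summed scaled signal 274 in C57BL6/N and 170 in transgenic lung. The Bmpr2 difference lay within their range of -1.10 for Tie1 to -0.27 for Vwf, with 3 of the 14 lower than Bmpr2. Those of Id1 and Bmp6 lay within it too, each with 9 of the 14 markers lower. The range of the alveolar type 1 markers, -1.08 to 0.01, also held the differences of Bmpr2, Id1 and Bmp6. The part that the lower markers of either cell type have in these values was not tested.

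The Id genes, which encode helix-loop-helix proteins without a DNA-binding region that hold E proteins away from DNA, did not differ in 1 direction. Id1 (NM_010495), a widely used readout of BMP signalling in endothelium, read 19501 ± 1950 and 14166 ± 1417. Its difference was -0.61, or 1.53-fold lower in the transgenic lung, and it stood within 1.5-fold, at -0.55 and -0.58, with median scaling and cyclic loess. Id2 (NM_010496) read 7788 ± 779 and 8119 ± 812, a difference of -0.09 that was under the software error. Id3 (NM_008321) read 7643 ± 764 and 11795 ± 1180, a difference of 0.48, or 1.39-fold higher in the transgenic lung, short of 1.5-fold. The difference of Id3 exceeded that of Id1 by 1.09 on the log2 scale, and that of Id2 by 0.57. Such a gap within an array does not depend on a constant used to scale it, and between Id3 and Id1 it ran from 1.09 to 1.14 over the 11 settings. In the same way the difference of Grem1 exceeded that of Bmpr2 by 3.46, with a range of 2.86 to 3.56. Grem1 and Bmpr2 were the highest and the lowest of the members, so this gap is the largest among them by choice.

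**Figure D2:**
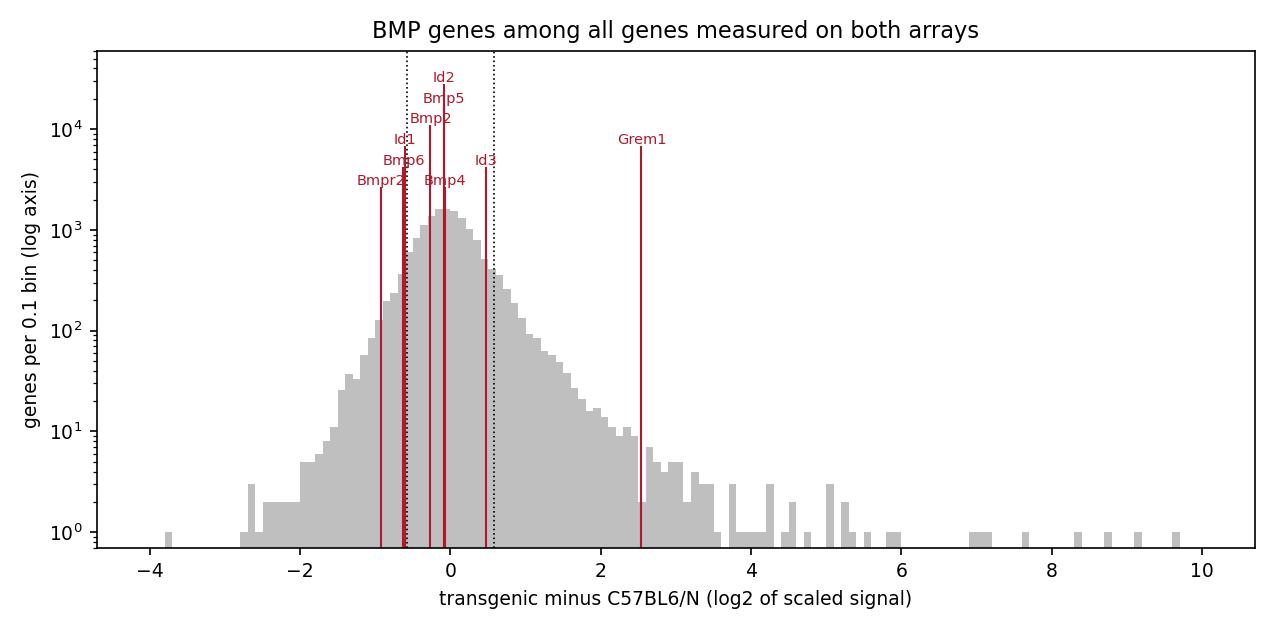
Histogram of the difference, transgenic minus C57BL6/N, of 15495 genes measured on both arrays (log2 of scaled signal on the horizontal axis, genes per bin on a log vertical axis). Red lines mark the 9 BMP genes, and dotted lines mark 1.5-fold in either direction. Grem1 lies in the upper tail at 2.54, Bmpr2 at -0.92 near the lower end of the bulk, and Bmp2, Bmp4, Bmp5, Id2 and Id3 inside 1.5-fold.

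The rest of the pathway was described with lists of 57 other genes, of which 49 were measured on both arrays. Of these, 8 (16.3%) exceeded 1.5-fold upward and 14 (28.6%) downward, and the median difference was -0.12, against 10.2% and 8.31% and a median of -0.04 over all genes. At 2-fold 3 were higher and 2 lower, against 3.81% and 1.87% of all genes.

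The other antagonists held the largest differences of these lists and went both ways. Of 13 measured (median 0.15), 3 (23.1%) exceeded 1.5-fold upward and 2 (15.4%) downward, against 10.2% and 8.31% of all genes. Fst (follistatin), which binds activins and some BMPs, read 854 in the C57BL6/N lung and 4853 in the transgenic lung, a difference of 2.36 that ranked 86th of all genes. Chrdl2, a relative of chordin, differed by 1.87 from dim signals of 18.9 and 76.5, and by 2.58 and 0.66 with normexp background correction on all spots and without spots at or below local background. Bmper, which binds BMPs in the vessel wall, read 1513 and 4063, a difference of 1.28. Chrdl1, another relative of chordin, was lower at each of its 3 probes, by -0.98, -1.28 and -1.48. Twsg1, which assists chordin, was at -0.66. Nog (noggin), the antagonist known from dorsal patterning of the embryo, was at 0.15 from dim signals of 71.8 and 88.5. Sost passed the background threshold in the transgenic lung alone, at least 1.21-fold higher, and the probes of Sostdc1, Cer1 and Vwc2 passed it in neither lung. The part that the higher fibroblast, cardiac, fat and basal cell markers have in the antagonist values was not tested.

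Most of the other ligands were lower or within 1.5-fold. Of 9 measured (median -0.54), 1 (11.1%) exceeded 1.5-fold upward and 4 (44.4%) downward, against 10.2% and 8.31% of all genes. Bmp7 read 187 and 369, a difference of 0.83. Gdf5 was at -0.78, Gdf3 at -0.72, Gdf7 at -0.68 and Bmp3 at -0.67. Gdf5 read 117 and 75.7, Gdf7 read 46.9 and 32.4, both dim, and the probes of Gdf3 differed, at -0.25 and -1.20. A further Gdf5 probe, at 9.07 and 13.3, was well above background in the transgenic lung alone, against the direction of the first. Without the filter on dim probes Gdf5 stood at -0.19 and Gdf7 at -0.38, and Bmp3 stood at -0.53 with normexp without spots at or below local background, all within 1.5-fold. Gdf2, which encodes the circulating ligand BMP9 made in liver, was at -0.05 from signals of 44.6 and 47.8, while Bmp10 and Bmp15 were not well above background on either array.

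Among the other receptors, Smads and Smurfs, more genes were past 1.5-fold downward than upward. Of 9 other receptors and co-receptors measured (median -0.15), 1 (11.1%) exceeded 1.5-fold upward and 3 (33.3%) downward. Over all genes the shares were 10.2% and 8.31%, so that the upward share was near that of all genes. Acvrl1 (ALK1), the endothelial type I receptor, read 16375 and 11749, a difference of -0.63. Eng (endoglin), its co-receptor, read 8602 and 6072, a difference of -0.65, and the type II receptor Acvr2b was at -0.60. Bmpr1b was at 0.71 over 2 dim probes, of which the brighter was at 0.33. Bmpr1a, the widely expressed type I receptor, was at -0.15, and Acvr1 at -0.01. Hjv and Bambi were not well above background on either array. Of 8 Smads and Smurfs (median -0.25), 1 (12.5%) exceeded 1.5-fold upward, again near the share of all genes, and 2 (25%) downward. Smad6, the inhibitory Smad that BMP signals induce, read 6962 and 3824 and had a difference of -1.01, the lowest of the 8. Smad7, the other inhibitory Smad, was at -0.35. Of the ubiquitin ligases that mark receptors and Smads for breakdown, Smurf1 was at 0.59 and Smurf2 at -0.71, the latter spread from -1.27 to -0.27 over 3 probes. Acvrl1 was within 1.5-fold, at -0.57 with median scaling and -0.58 with normexp without spots at or below local background. Acvr2b was within it in both of these settings (-0.55 and -0.57), and with quantile (-0.58) and cyclic loess scaling (-0.56). Bmpr1b stood at 0.33 with its brightest probe alone, and Smurf1 at 0.45 with normexp without spots at or below local background. Eng, Smad6 and Smurf2 stayed past 1.5-fold in each of the 11 settings. The signal-carrying Smad1, Smad5 and Smad4 differed by 0.08, -0.15 and 0.10, and Smad9 by -0.37.

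Other target genes went both ways. Of 7 measured (median 0.16), 2 (28.6%) exceeded 1.5-fold in each direction, against 10.2% upward and 8.31% downward of all genes. Hey1, a repressor downstream of Notch and ALK1 in arteries, read 13537 and 8354, a difference of -0.84, and Tmem100, a target of ALK1, read 8851 and 5655, a difference of -0.79. Hey2 was at 0.66 from dim signals of 30.4 and 53.3, and Id4 at 0.62 from 352 and 598, but they stood at 0.19 and 0.55 with normexp without spots at or below local background. Msx1, Msx2 and Atoh8 were at 0.19, 0.08 and 0.16. The E proteins, the partners that Id proteins sequester, centred on -0.29 in the median, and Tcf4, at -0.65, was the 1 of 3 past 1.5-fold, though at -0.50 with its brightest probe alone. The part that the lower endothelial markers have in these receptor, Smad and target values was not tested. Alveolar type 1 markers were lower too, with 4 of 9 past 1.5-fold, a median of -0.56 and a summed scaled signal of 173 and 114. Alveolar type 2 markers had a median of -0.43 with 0 of 9 past 1.5-fold (586 and 447), and club cell markers a median of 0.02 over 3 genes (386 and 404), with Bpifa1 at 8.78.

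**Figure D3:**
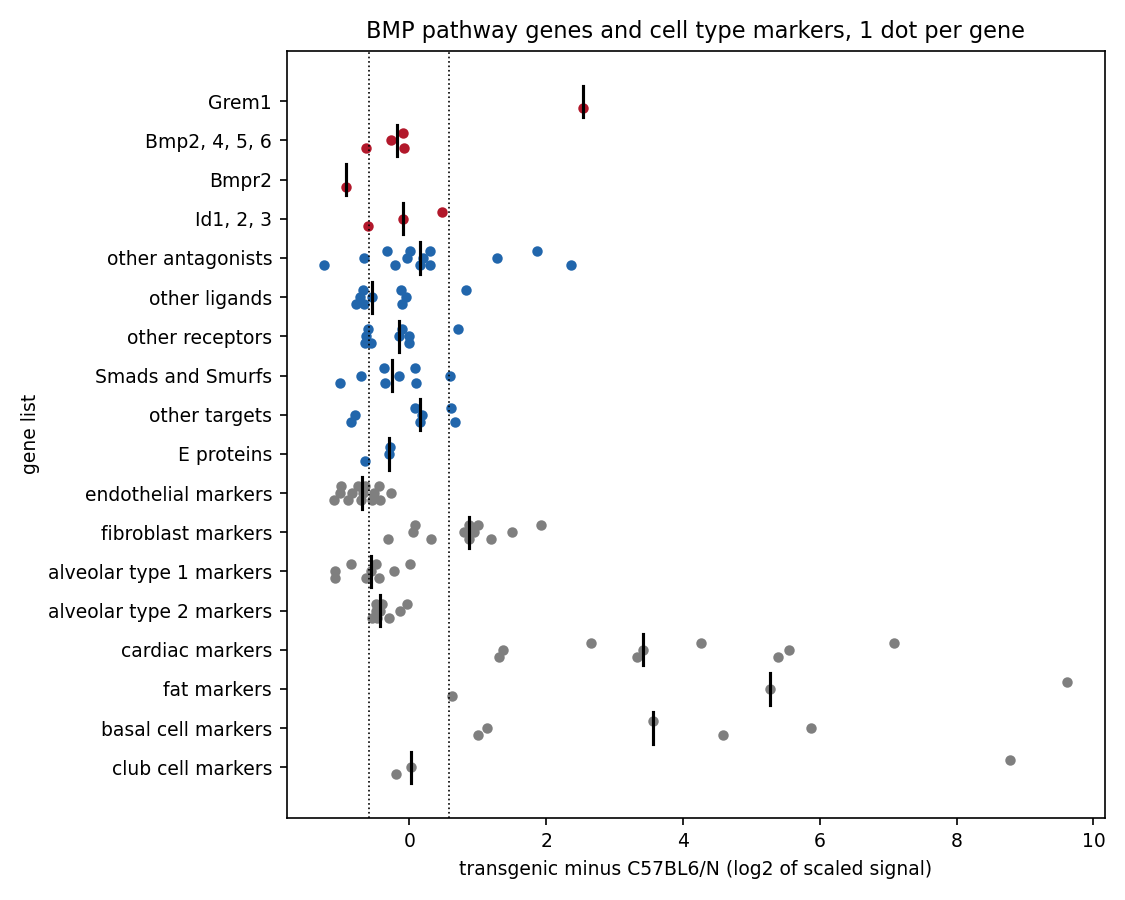
Difference, transgenic minus C57BL6/N (log2 of scaled signal), of each gene measured on both arrays in the 9 members (red), the other BMP pathway lists (blue) and cell type marker lists (grey), with 1 dot per gene and a black bar at the median of each list. Dotted lines mark 1.5-fold in either direction. Grem1 (2.54), Fst (2.36) and Chrdl2 (1.87) are the highest of the pathway genes. Bmpr2 lies within the ranges of the endothelial and of the alveolar type 1 markers.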

How the data were processed

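The deposited array files give, per the file headers, the intensity of each spot from Agilent Feature Extraction 11.5.1.1, with background subtracted and trends across the array removed, and flags and an error estimate per spot (other values). The authors' deposited table of the series is the same intensity, equal within 0.1% at all 39022 and 39020 probes of a single spot that were compared. Its column medians were 111 and 118. Its scale is linear and not centred.

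Control and outlier spots were left out, spots of a probe were averaged as log2, and each array's 75th percentile over non-control probes was subtracted. A probe was used if 50% or more of its spots were well above background, and none saturated, on each array, and a gene was the mean of its probes. A probe on 1 array alone got a bound, against the higher of its own signal and the lowest signal well above background (11.9 and 12.5). RefSeq accessions without version were matched to a gene table of GRCm38.p6 for names (27508 of 39429 probes). The array headers name mm9, so no positions from the arrays are given, and those of the promoters are on GRCm38.p6. The software's error of a difference combines the relative errors of both spots. The repeat-spot SD came from 105 probes in each of 3 brightness groups, printed at least 10 times. Scaling and the averaging of probes into genes were checked on simulated probe values with 1 noise level. Spot averaging, bounds and background corrections were not part of that check.

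With 1 array per group there was no test. The members and lists were chosen with earlier results of these data known. The rule for named genes took all members and, of each other pathway and marker list, the highest, the lowest and those past 1.5-fold. Marker lists are mostly given here by their counts and range, and other genes were named after their values were seen. One item is not reported here. Alternatives were median, quantile and cyclic loess scaling, 2 normexp corrections with an offset of 50 (on median pixel signals, since mean signals were not used here), no filter and a stricter one above the 25th percentile, outlier spots kept, the brightest probe and the deposited table. Python 3.11.15, numpy 2.4.6, pandas 2.3.3, matplotlib 3.10.9, R 4.3.3 and limma 3.58.1 were used.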

Additional observations from a re-analysis of the deposited data

How the results depend on the processing

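Over the 10 alternatives, Grem1 remained at least 1.5-fold higher and Bmpr2 at least 1.5-fold lower. For these and other genes read by 1 probe of 1 spot, the filter settings and the brightest probe could not change the value. The deposited table holds the same intensities as the array files. With normexp on all spots the median of all genes was 0.60, against -0.04 in the main processing. In that setting 3 of the 9 members were at least 1.5-fold higher and 5 lower, against 7791 and 2927 of 15495 genes. The member median was -0.79, and Id3 stood at -0.30. There the other pathway genes numbered 29 higher and 9 lower with a median of 1.17, and Chrdl1 (1.67), Bmp3 (0.28), Gdf3 (1.95), Gdf5 (1.96) and Gdf7 (2.38) reversed. In that setting 1 spot of the C57BL6/N array and 6 of the transgenic array did not exceed their local background. Without such spots normexp gave 4 pathway genes higher and 8 lower, against 8 and 14 in the main processing, and over all genes 980 higher and 682 lower, against 1582 and 1287. Members at least 1.5-fold lower numbered 1, Bmpr2, with median scaling and with cyclic loess, against 1065 and 971 of 15495 genes. Without a filter on dim probes the member median was -0.27, as Bmp4 then included its dim probe, which supports a bound alone, and all genes numbered 2526 higher and 2080 lower. With the stricter filter pathway genes higher numbered 5, against 1034 of 12777 genes, and Chrdl2 and Hey2 were among the genes it dropped. Higher genes made up 72.7% of all past 1.5-fold with normexp on all spots, 66.5% with cyclic loess and 55.1% in the main processing. The other causes were not tested. No paired analysis was possible because there was 1 array per group. Probes near background, such as Chrdl2, Hey2 and the dim Bmp4 probe, limit what can be read from their size.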

Other observations

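Of 4046 genes with several probes and a difference within 1.5-fold, 182 had a further probe well above background on 1 array alone, and 2 of the 182 had a bound as large as that of the dim Bmp4 probe, Bmp4 itself and Ephb6 (at least 8.32-fold). This comparison was chosen after the values of Bmp4 were seen, so Bmp4 had to be among them. The dim Bmp4 spot carried no outlier flag on either array. Its median pixel signal was 112 in the C57BL6/N lung and 55.0 in the transgenic lung, and its local background, 36.0 and 34.5, was close to the array medians of 37.0 and 33.5. Which transcript of Bmp4 each probe reads was not tested.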
